A study of Mus musculus with 9 samples.

Results

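A set of 36 microglia and macrophage genes was followed by bulk RNA sequencing in punches of a hypothalamic nucleus, the paraventricular nucleus (PVN), out of 27179 genes in the count table. The genes were taken by symbol from a list of homeostatic, activated and perivascular macrophage genes. The rule that picks them sets no threshold on their levels, although the list was drawn up with earlier results of these data known. All 36 were in the table and all 36 passed the low-count filter, which left 17344 genes tested. The punches came from 9 male wild type C57BL/6 mice, 3 separate mice in each of 3 groups and 1 library per mouse. The Control group ate chow. The HFD group ate a diet in which fat gave 60% of the calories, over 12 weeks. The HFD+Mino group had that high-fat diet for the same 12 weeks and received minocycline, a tetracycline antibiotic, during the final 6 weeks (40 mg/kg/day). The diets began at 5 weeks of age, and the sample labels give the age as postnatal day 35, which is the age at that start. No group of chow-fed mice given minocycline was analysed here. The comparisons address whether the diet, and minocycline under the diet, change microglial gene expression in the PVN.

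Microglia are the resident macrophages of the brain parenchyma. They depend on the growth factor receptor encoded by Csf1r, sense nucleotides through the P2ry12 and P2ry13 receptors and neuronal fractalkine through Cx3cr1, and signal through small adaptor proteins, Tyrobp and Fcer1g, that carry activating motifs for receptors such as Trem2 and the Fc receptors. On activation they change shape and take up debris, and their surface and lysosomal genes change in part separately, while macrophages along blood vessels are marked by Mrc1 and Cd163. Aif1 encodes the Iba1 protein by which microglia are usually stained.

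Total counts per sample ran from 17728590 to 42326213. Values are given as CPM, the count per 1000000 counts of a TMM-scaled library, always in the order of replicates 1, 2 and 3. Some libraries stood apart from their groups. Avp, the vasopressin gene that marks PVN neurons, was at 0.149 CPM in Control replicate 1 against 157 and 990.3 in the other Control samples, and the oligodendrocyte list of 10 genes summed to 29967 CPM there against 2317 to 7068 in the 8 other samples. The 6 PVN neuropeptide and identity genes reached sums of 38056 and 32517 CPM in the first and second HFD+Mino samples, beside 3807 in the third and 2929.8 to 3862 in HFD. Choroid plexus and ependymal genes, 7 in the list, summed to 293 to 632 CPM in HFD+Mino, 140 to 255 in HFD and 19.4 to 131 in Control. Of 10 astrocyte genes, 5 were lower in HFD+Mino than in HFD at an unadjusted p under 0.05, as were 5 of 10 neuron genes. In both lists 1 gene was higher. Over all genes, 19.8% were lower and 21.6% higher. The astrocyte gene Sox9 and the vessel genes Kdr and Pdgfrb were called lower in HFD+Mino than in HFD. Sox9 was also called higher in HFD than in Control. Of the 10 endothelial and mural genes, however, 4 were higher and 3 lower in HFD+Mino than in HFD at an unadjusted p under 0.05. They summed to 626, 581 and 254 CPM in HFD+Mino and to 213 to 276 in HFD. The part of this uneven tissue content in the results below was not tested. Values without Control replicate 1 or HFD+Mino replicate 3 are given beside several of the results that moved most without them. In bulk tissue, fewer microglia and less RNA per microglial cell cannot be told apart.

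The 36 genes together took from 0.162% to 0.483% of a sample's counts, most of it from Cst3. Per kilobase of transcript, Cst3, which encodes the protease inhibitor cystatin C and is also strongly expressed by astrocytes and neurons, had the highest mean level in Control at 1537 CPM per kb. Ctss, the lysosomal protease cathepsin S, followed at 95.2, Tyrobp at 56.0 and Fcer1g at 29.6 CPM per kb. The homeostatic receptor genes were lower, with P2ry12 at 15.2, Csf1r at 13.6, Tmem119 at 8.93 and Cx3cr1 at 4.74 CPM per kb. The least abundant members were the perivascular macrophage genes Cd163 and Mrc1, the receptors Tlr4 and Tlr7, and the dendritic cell and activation gene Itgax, all between 0.0694 and 0.168 CPM per kb. Defining microglial markers were therefore measured in every sample. Within groups, the median SD of the members on the log2 CPM scale was 0.45 for Control, 0.21 for HFD and 0.61 for HFD+Mino, beside 0.36, 0.22 and 0.53 over all tested genes. The wide spread in HFD+Mino came with 11 members whose coefficient of variation was over 50%, against 4 in Control and 3 in HFD.

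**Figure D1:**
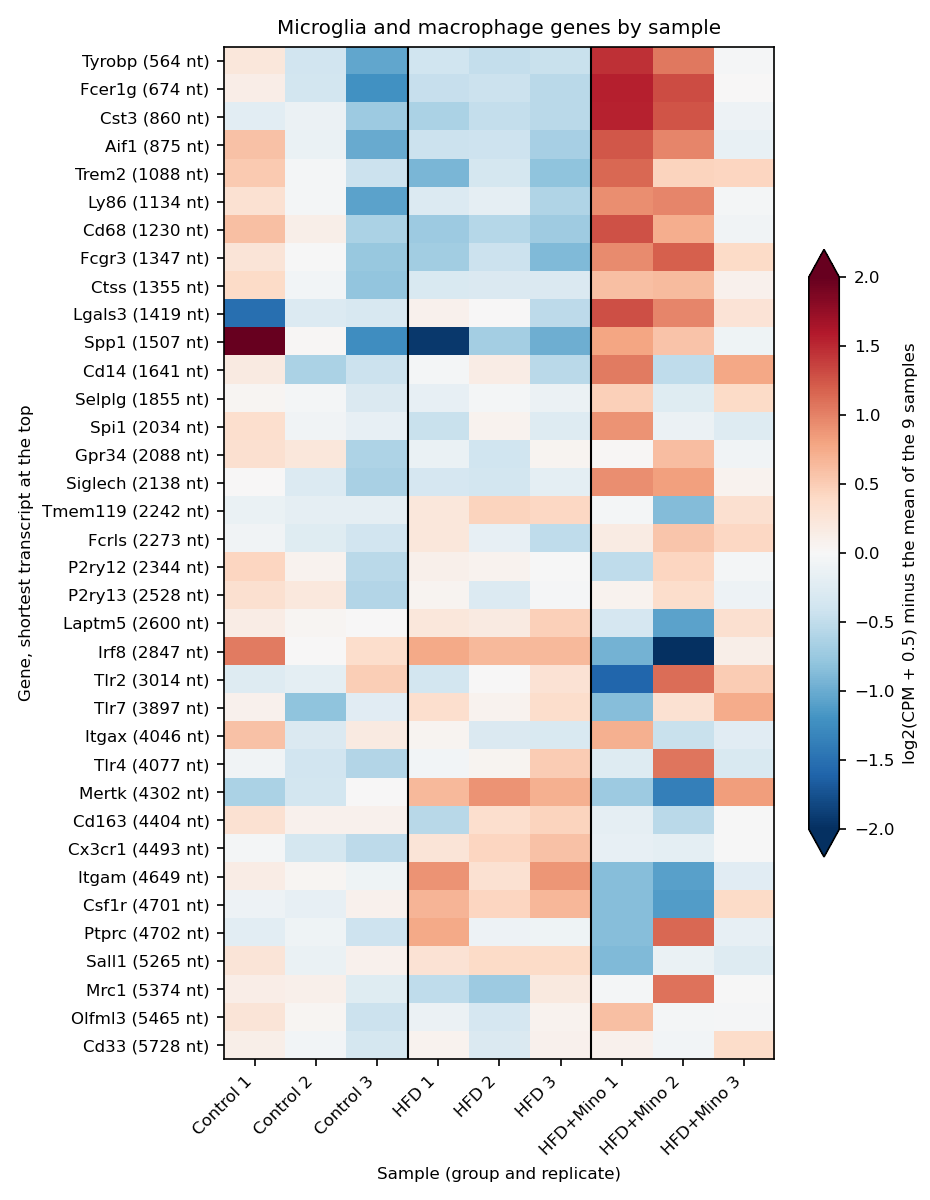
Heat map of the 36 genes (rows, ordered by transcript length from 564 nt for Tyrobp to 5728 nt for Cd33) in the 9 samples (columns), where the colour gives log2(CPM + 0.5) minus the mean of the 9 samples. The upper rows are highest in HFD+Mino replicates 1 and 2, many lower rows are lowest in those same samples, and HFD+Mino replicate 3 lies closer to the other groups.

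In HFD against Control, the microglial genes showed no common direction. Their median log2 fold change was −0.02, with 16 genes above 0 and 20 below, beside a median of 0.00 over all 17344 genes. None of the 36 genes was called at a false discovery rate (FDR) under 0.01 and a 1.5-fold difference (edgeR quasi-likelihood test, Benjamini-Hochberg adjusted), where 1.74% of all genes were called. DESeq2 also called 0 members, where it called 6.91% of all genes. At an unadjusted p under 0.05, 3 members were higher in HFD (Mertk, Itgam and Cx3cr1, against 11.3% of all genes) and 2 were lower (Trem2 and Spp1, against 9.22%). These shares of the members, 8.33% and 5.56%, lay below those over all genes.

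Several surface receptor genes were separated between the HFD and Control samples, although none was called. Cx3cr1, the fractalkine receptor (chromosome 9 of GRCm38.p6, 120048683 to 120068296), was at 25.5, 20.4 and 18.0 CPM in Control and at 31.4, 35.3 and 39.4 in HFD. All HFD samples lay above all Control samples, with a log2 fold change of 0.73 ± 0.22 (standard error) and an FDR of 0.0827 by edgeR's quasi-likelihood test. Csf1r, the receptor for the survival factors CSF1 and IL-34, was at 61.7, 59.1 and 70.8 CPM in Control and at 106, 89.4 and 106 in HFD, again without overlap (log2 fold change 0.65 ± 0.34, edgeR FDR 0.309). Itgam, which encodes the integrin chain CD11b, was at 10.8, 9.94 and 9.07 CPM in Control and at 18.4, 12.04 and 18.3 in HFD (0.71 ± 0.31, edgeR FDR 0.220). In all, 8 members were higher in every HFD sample than in every Control sample, namely Csf1r, Mertk, Tlr4, Laptm5, Tmem119, Itgam, Sall1 and Cx3cr1, which is 22.2% of the set, against 19.7% of all genes. No member was lower in every HFD sample, where 16.0% of all genes were. The purinergic receptors P2ry12 and P2ry13, by which resting microglia follow ATP and ADP, were not separated, with P2ry12 at 47.1, 36.3 and 23.6 CPM in Control and 37.3, 36.5 and 34.4 in HFD.

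The 3 largest positive log2 fold changes were those of Mertk, Tlr7 and Tlr4, none of them called. Mertk, a receptor kinase for the uptake of dying cells, was at 5.79, 7.09 and 9.33 CPM in Control and at 14.8, 17.7 and 15.5 in HFD (log2 fold change 1.11 ± 0.50, edgeR FDR 0.239). Mertk is also expressed by astrocytes. The astrocyte gene Sox9 was at 32.1, 37.1 and 44.7 CPM in Control and 100.4, 106.7 and 105.3 in HFD. The 10 astrocyte genes together, however, summed to 4774 to 7183 CPM in Control and 5147 to 6019 in HFD. Of them, 2 were higher and 1 lower in HFD at an unadjusted p under 0.05, against 11.3% and 9.22% of all genes. The part of astrocytes in the Mertk values was not tested. Tlr7, which senses single-stranded RNA, was at 0.845, 0.226 and 0.589 CPM in Control and 1.10, 0.841 and 1.12 in HFD. Tlr4, the endotoxin receptor, was at 0.894, 0.621 and 0.471 CPM in Control and 0.903, 1.02 and 1.57 in HFD. Both Toll-like receptor genes were at low levels, and their standard errors of 0.77 and 0.65 on the log2 scale cover most of their log2 fold changes of 0.88 and 0.81.

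The 3 largest negative log2 fold changes were those of Spp1, Itgax and Cd68, again not called. Spp1, the secreted phosphoprotein osteopontin (chromosome 5, 104435111 to 104441053), was at 165, 14.0 and 5.56 CPM in Control and at 3.26, 8.47 and 6.77 in HFD. Its log2 fold change of −3.31 ± 1.00 (edgeR FDR 0.0827) rested on Control replicate 1, the sample rich in oligodendrocyte transcripts, and was −0.66 without it (edgeR FDR 0.652). Itgax was at 0.522, 0.0565 and 0.265 CPM in Control and 0.201, 0.0580 and 0.0498 in HFD, a level of few reads per library. Cd68, a lysosomal glycoprotein used to mark phagocytic microglia, was at 17.1, 12.03 and 6.95 CPM in Control and 6.53, 7.34 and 6.57 in HFD (−0.82 ± 0.39, edgeR FDR 0.269). Aif1 was at 14.9, 8.84 and 4.62 CPM in Control and 7.08, 7.19 and 5.97 in HFD (−0.49 ± 0.44, edgeR FDR 0.569), and all HFD values lay inside the Control range. Without Control replicate 1 the log2 fold change of Aif1 was −0.0011 and that of Cd68 −0.48. Among the perivascular members, Mrc1 was at 0.994, 0.960 and 0.648 CPM in Control and 0.452, 0.319 and 1.05 in HFD, and Cd163 at 0.869, 0.678 and 0.677 in Control and 0.251, 0.899 and 0.996 in HFD, with overlap in both.

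In HFD+Mino against HFD, the Fc receptor gene Fcgr3 rose, and no other member was called. This was 1 of 36 genes, or 2.78%, where 4.15% of all genes were called (edgeR, adjusted by Benjamini-Hochberg). Their median log2 fold change was 0.41, with 25 members above 0 and 11 below, beside a median of 0.01 over all genes. At an unadjusted p under 0.05, 11 members were higher in HFD+Mino (30.6% of them, against 21.6% of all genes) and 4 lower (11.1%, against 19.8%). At an FDR under 0.05 with the same fold, 8 were higher (14.6% of all genes) and 1, Itgam, was lower (12.9% of all genes). This comparison shares the 3 HFD samples with the previous one, so that a deviation of HFD enters both with opposite sign.

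The adaptor and receptor group (Tyrobp, Fcer1g, Trem2 and Fcgr3) was higher in every HFD+Mino sample than in every HFD sample in all 4 genes. Over all genes, 23.3% were separated in this way. The 4 transcripts are short (564 to 1347 nt), and all genes of 564 to 2273 nt had a median log2 fold change of 0.72. Fcgr3, the low-affinity IgG receptor CD16 (chromosome 1, 171051169 to 171065915), was at 14.2, 17.2 and 12.3 CPM in HFD and at 45.1, 54.0 and 30.6 in HFD+Mino. In Control it was at 27.8, 23.1 and 13.5. The lowest HFD+Mino sample was replicate 3, and no HFD+Mino sample overlapped with another group. The log2 fold change was 1.57 ± 0.32 with an FDR of 0.00985 (edgeR's quasi-likelihood test). Fcer1g, the Fc receptor gamma chain that pairs with CD16, was at 19.0, 19.3 and 17.9 CPM in HFD and 78.2, 65.6 and 26.5 in HFD+Mino (1.60 ± 0.41, edgeR FDR 0.0195). Tyrobp, the adaptor DAP12, was at 29.4, 28.1 and 28.6 CPM in HFD and 109, 82.0 and 38.4 in HFD+Mino (1.41 ± 0.39, edgeR FDR 0.024). Trem2, the lipid-sensing receptor that signals through Tyrobp (chromosome 17, 48346401 to 48352276), was at 7.38, 11.2 and 7.99 CPM in HFD and 32.7, 19.7 and 19.5 in HFD+Mino (1.43 ± 0.33, edgeR FDR 0.0142). Reads of Fcgr3 can be shared with its Fc receptor paralogs, and how the authors' counting split them is not given in the sources used here.

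**Figure D2:**
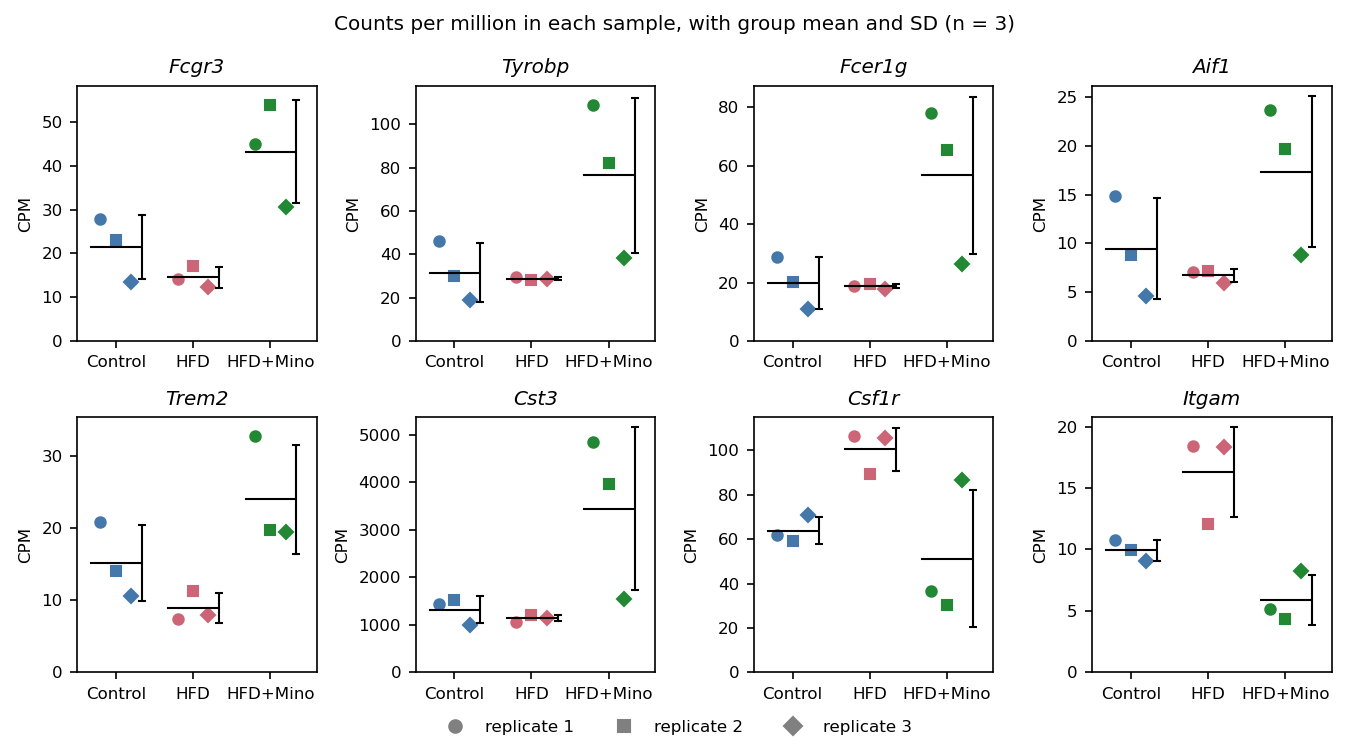
CPM of 8 members in each sample (circle, square and diamond for replicates 1, 2 and 3), with the group mean as a line and the SD as a bar (n = 3). In Fcgr3, Tyrobp, Fcer1g, Aif1, Trem2 and Cst3 all HFD+Mino samples lie above all HFD samples, in Csf1r and Itgam all lie below, and replicate 3 is the HFD+Mino sample nearest to HFD in all 8 panels, in Trem2 by little.

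Among genes of phagocytosis and lysosomes, Cst3 was at 1072, 1198 and 1139 CPM in HFD and 4840.4, 3966 and 1541 in HFD+Mino (log2 fold change 1.60 ± 0.37, edgeR FDR 0.0135). Because Cst3 is made by many brain cell types, its level does not stand for microglia alone. Cd68 was at 6.53, 7.34 and 6.57 CPM in HFD and 27.6, 18.7 and 10.5 in HFD+Mino (1.47 ± 0.40, edgeR FDR 0.0224). Ctss was at 109, 111 and 111 CPM in HFD and 207, 211 and 144 in HFD+Mino (0.76 ± 0.29, edgeR FDR 0.0683). Laptm5, a lysosomal membrane protein of blood-derived cells, and Mertk had lower means in HFD+Mino with replicates that disagreed. Mertk was at 5.37, 3.27 and 16.9 CPM in HFD+Mino, and the third of these lies inside the HFD range. Its log2 fold change was −0.91, and −1.89 without that sample.

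Aif1 was at 7.08, 7.19 and 5.97 CPM in HFD and 23.7, 19.7 and 8.77 in HFD+Mino. All HFD+Mino samples lay above all HFD samples, replicate 3 by little, and the log2 fold change was 1.36 ± 0.45 (edgeR FDR 0.0438). Ptprc, the pan-leukocyte phosphatase CD45, was at 4.27, 2.12 and 2.14 CPM in HFD and 1.06, 5.76 and 2.02 in HFD+Mino, with no separation. Of the activation genes, Lgals3, the lectin galectin-3, was at 7.43, 7.02 and 4.73 CPM in HFD and 17.9, 14.2 and 8.58 in HFD+Mino (1.09 ± 0.42, edgeR FDR 0.0739). Spp1 was at 3.26, 8.47 and 6.77 CPM in HFD and 24.1, 20.7 and 12.9 in HFD+Mino, the largest positive log2 fold change of the set at 1.63 ± 0.94 (edgeR FDR 0.214). Spp1 shares 309 nt of exon with the gene model Gm42793.

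The surface receptor genes divided. Siglech, a sialic acid receptor of microglia, was at 18.1, 17.8 and 20.2 CPM in HFD and 44.3, 41.2 and 24.3 in HFD+Mino (log2 fold change 0.97 ± 0.28, edgeR FDR 0.0276). Itgam was at 18.4, 12.04 and 18.3 CPM in HFD and 5.17, 4.31 and 8.22 in HFD+Mino, the lowest adjusted p among the members below HFD (−1.46 ± 0.31, edgeR FDR 0.0118). Csf1r was at 106, 89.4 and 106 CPM in HFD and 36.8, 30.3 and 86.7 in HFD+Mino (−0.97 ± 0.34, edgeR FDR 0.0564), and its log2 fold change was −1.58 without HFD+Mino replicate 3. Cx3cr1 was at 31.4, 35.3 and 39.4 CPM in HFD and 23.2, 22.8 and 26.0 in HFD+Mino (−0.56 ± 0.22, edgeR FDR 0.0791). P2ry12, P2ry13, Gpr34, Selplg, Cd33, Fcrls, Olfml3 and Tmem119, the other genes of this group, had log2 fold changes between −0.49 and 0.51 and overlapping groups. In GENCODE M21, the exons of Itgam overlap the gene model Gm49368 on the same strand over 3450 nt. Those of Csf1r overlap Hmgxb3 on the opposite strand over 873 nt, and those of Cx3cr1 an antisense model over 78 nt. Reads from such stretches may not be assignable to 1 gene. Whether these models and the strand entered the authors' counting is not given in the sources used here.

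Of the 3 transcription factor genes, Irf8 was at 4.67, 4.32 and 4.31 CPM in HFD and at 1.10, 0 and 2.84 in HFD+Mino, the largest negative log2 fold change of the set at −1.74 ± 0.92 (edgeR FDR 0.176). Without HFD+Mino replicate 3 it was −2.99, and over all samples left out in turn it ran from −2.99 to −1.16. Sall1, which maintains microglial identity, was at 7.98, 8.58 and 8.59 CPM in HFD and 3.25, 5.83 and 5.30 in HFD+Mino (−0.81 ± 0.31, edgeR FDR 0.0704). Spi1, which encodes the master regulator PU.1, was at 2.86, 4.32 and 3.34 CPM in HFD and 7.98, 3.71 and 3.33 in HFD+Mino, where replicate 1 alone was high. Among Toll-like receptor genes and their cofactors, Ly86 (MD-1) was at 14.7, 15.9 and 11.6 CPM in HFD and 34.7, 35.7 and 17.4 in HFD+Mino (1.06 ± 0.38, edgeR FDR 0.0593), while Cd14, Tlr2, Tlr4 and Tlr7 overlapped between the groups. The perivascular genes Mrc1 (0.822, 2.38 and 0.847 CPM in HFD+Mino) and Cd163 (0.479, 0.260 and 0.601) overlapped with HFD as well.

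Counted over the set, 12 members were higher in every HFD+Mino sample than in every HFD sample (33.3%, against 23.3% of all genes). They were Fcgr3, Fcer1g, Cd68, Ly86, Lgals3, Aif1, Trem2, Cst3, Ctss, Spp1, Tyrobp and Siglech. A further 5 were lower in every HFD+Mino sample, namely Csf1r, Itgam, Sall1, Irf8 and Cx3cr1 (13.9%, against 23.5% of all genes). The call of Fcgr3 was not kept in every fit with 1 sample left out. It was lost without Control replicate 2, without any 1 HFD sample, and without HFD+Mino replicate 1 or 2, each of which left 0 members called. In those fits 0.162% to 1.89% of all genes were called, against 4.15% with all samples. With 1 sample left out, the log2 fold change of Fcgr3 ran from 1.38 to 1.76. Without HFD+Mino replicate 3, 11 members were called, 8 higher (Fcgr3, Fcer1g, Cd68, Aif1, Trem2, Cst3, Tyrobp and Siglech) and 3 lower (Csf1r, Mertk and Itgam), where 21.4% of all genes were. DESeq2 called 8 members, where it called 23% of all genes. A replicate block over all samples gave 2 called members, Fcgr3 and Itgam, or 5.56%, where 7.89% of all genes were called. A replicate block for only the Control and HFD+Mino samples gave 12 called members, 10 higher and 2 lower, against 25.6% of all genes. It was added after same-numbered samples of these groups were seen to deviate together in these counts. Its calls are therefore no separate support.

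**Figure D3:**
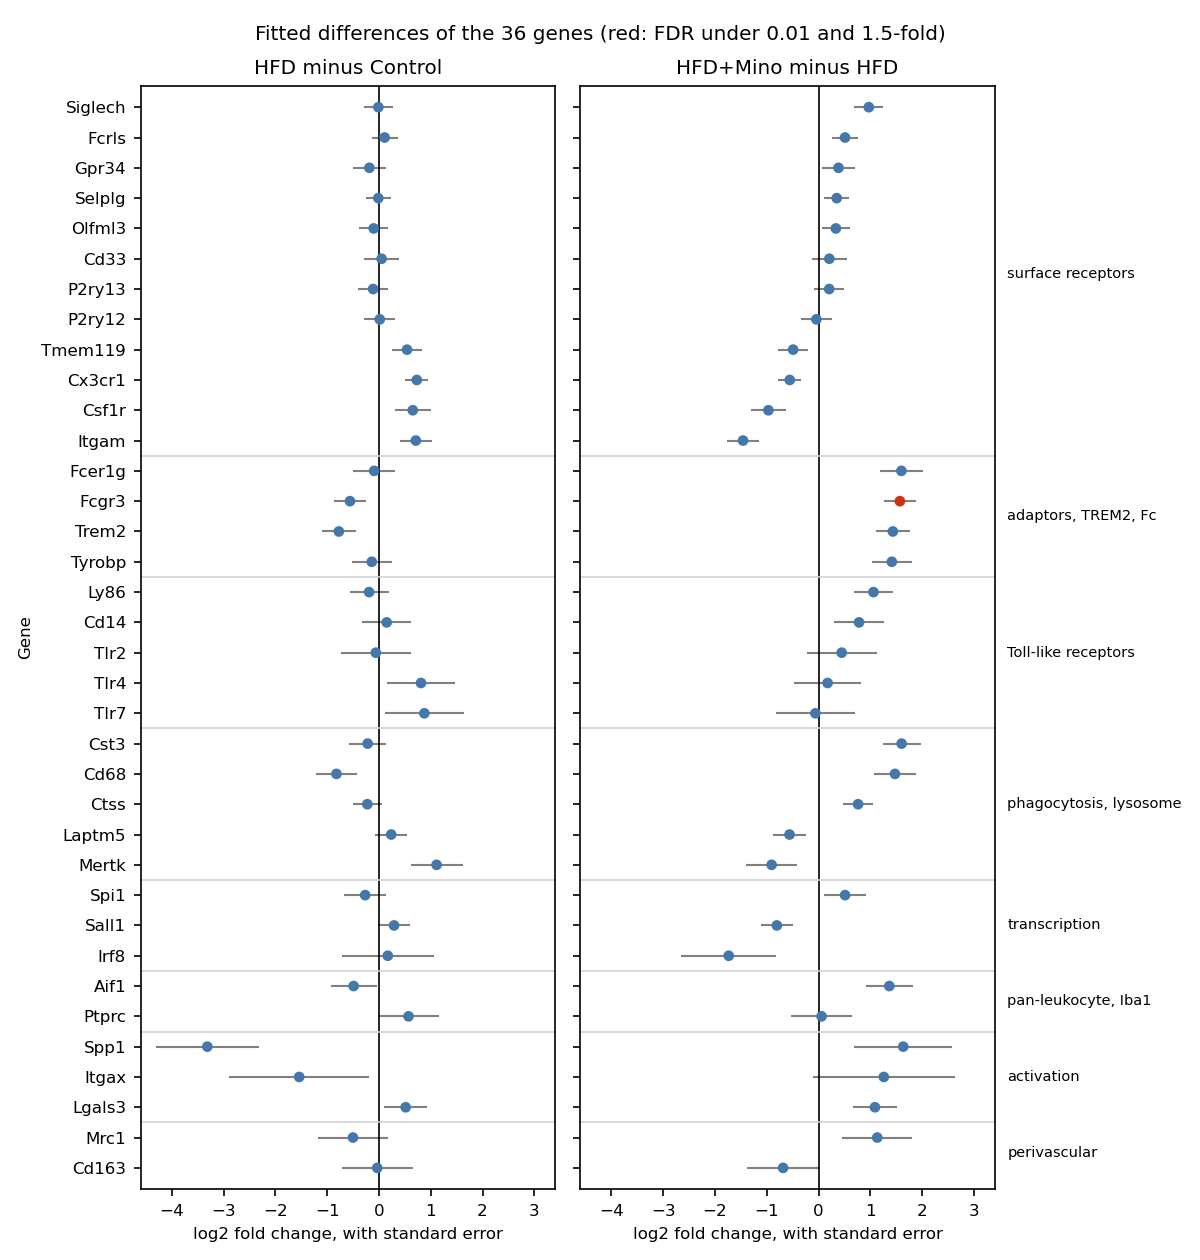
Log2 fold changes of the 36 genes (points) with their standard errors (bars) from the edgeR model, for HFD minus Control on the left and HFD+Mino minus HFD on the right, grouped by role. Fcgr3, at 1.57 on the right, is the only red point, which marks an FDR under 0.01 with a 1.5-fold difference, and the adaptor group lies between 1.41 and 1.60.

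PU.1, the Spi1 product, binds purine-rich sites in many macrophage promoters, and the short form of its site is the PU box GAGGAA, which was searched on both strands. RefSeq promoters of GRCm38.p6, from 250 bases before to 50 bases after a start, were at hand for 27 of the 36 genes, 33 promoters in all. The PU box was in 16 of the 33 (48.5%), against 28.3% of all 32851 promoters, and within 50 bases of the start in 11 (33.3%, against 11.3%). A match is a description of the letters, and binding was not measured. The start regions of 4 genes are shown because 3 of them, Fcgr3, Trem2 and Aif1, were higher in all HFD+Mino samples than in all HFD samples and Itgam was lower, while each of the 4 holds the box. Each run covers 90 bases before an annotated start to 29 bases after it on the gene's strand, and capitals mark the PU box, which reads TTCCTC where it lies on the opposite strand.
Fcgr3 (chr1:171059374-171059493, minus strand): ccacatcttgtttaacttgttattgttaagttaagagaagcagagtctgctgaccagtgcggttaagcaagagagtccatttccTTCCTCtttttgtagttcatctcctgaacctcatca
Trem2 (chr17:48346311-48346430, plus strand): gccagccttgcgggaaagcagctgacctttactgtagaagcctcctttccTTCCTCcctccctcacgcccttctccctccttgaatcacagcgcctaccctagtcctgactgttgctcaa
Aif1 (chr17:35176023-35176142, minus strand): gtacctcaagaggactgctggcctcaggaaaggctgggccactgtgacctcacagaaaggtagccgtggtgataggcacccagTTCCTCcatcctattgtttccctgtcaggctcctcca
Itgam (chr7:128062550-128062669, plus strand): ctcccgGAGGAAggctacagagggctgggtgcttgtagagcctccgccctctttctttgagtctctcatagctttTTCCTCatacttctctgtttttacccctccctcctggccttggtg
In Fcgr3 and Aif1 the box begins 6 and 7 bases before the start shown, and in Trem2 40 bases before it. Itgam holds a second box 15 bases before its start. The annotated start shown for Fcgr3 is an internal one, since on the minus strand the gene span given above begins at 171065915. That shown for Aif1 is internal too, by fewer bases, since the span of Aif1 on the minus strand begins at 35176083. Because the 4 genes were picked from both sides of HFD+Mino against HFD, they show no relation of the box to direction. The 27 genes with promoters were not counted by direction.

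In HFD+Mino against Control, members lay higher more often than lower. The median log2 fold change was 0.36, with 27 members above 0 and 9 below, beside −0.02 over all genes. No member was called by edgeR's quasi-likelihood test or by DESeq2, where edgeR called 0% of all genes and DESeq2 1.59%. At an unadjusted p under 0.05, 8 members were higher (Fcgr3, Fcer1g, Ly86, Lgals3, Cst3, Fcrls, Tyrobp and Siglech, 22.2% against 12.7% of all genes) and Itgam was lower (1 member, against 8.63%). In 5 members every HFD+Mino sample lay above every Control sample (Fcgr3, Lgals3, Cst3, Fcrls and Siglech, against 8.93% of all genes), and in 3 every one lay below (Cd163, Itgam and Sall1, against 10.1%).

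The largest positive log2 fold changes over Control were those of Lgals3, Fcer1g and Cst3. Lgals3 was at 2.14, 5.73 and 5.53 CPM in Control and 17.9, 14.2 and 8.58 in HFD+Mino (log2 fold change 1.60 ± 0.42, edgeR FDR 0.132). Fcer1g was at 28.8, 20.1 and 11.0 CPM in Control and 78.2, 65.6 and 26.5 in HFD+Mino, where replicate 3 lay below Control replicate 1 (1.51 ± 0.41, edgeR FDR 0.132). Cst3 was at 1437, 1523 and 1005 CPM in Control, so that HFD+Mino replicate 3 at 1541 was only just above the highest Control sample (1.38 ± 0.36, edgeR FDR 0.132). The largest negative ones were those of Spp1 (−1.68 ± 0.93), Irf8 (−1.57 ± 0.91) and Itgam (−0.75 ± 0.31). Irf8 was at 5.79, 2.597 and 3.41 CPM in Control, and its log2 fold change was −2.83 without HFD+Mino replicate 3. The value of Spp1 was 0.97, with the opposite sign, without Control replicate 1. Aif1 stood at 0.88 ± 0.44 over Control (edgeR FDR 0.275) and Fcgr3 at 1.01 ± 0.31 (edgeR FDR 0.137), and Aif1 was 1.36 over Control without Control replicate 1. Without HFD+Mino replicate 3, 4 members were called higher than Control, Fcer1g, Cst3, Tyrobp and Siglech, where 6.28% of all genes were called. Under the replicate block for only these groups, Fcer1g, Cst3 and Tyrobp were called (edgeR FDR 0.00509, 0.00825 and 0.00509), where 3.18% of all genes were. That block was added after the pairing was seen in these same counts, so these calls are no separate support.

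The 3-way test, which asks whether any group differs and calls genes with HFD as the highest or lowest group, called 0 members, where 2.13% of all genes were called (edgeR). At an unadjusted p under 0.05 there were 14 members, 38.9% of the set, against 39.0% of all genes. DESeq2 called 5 (Fcgr3, Cd68, Trem2, Cst3 and Itgam), where it called 13.6% of all genes, and 8 were called by edgeR without HFD+Mino replicate 3, where 13.4% of all genes were.

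The direction in which a member moved followed the length of its transcript. Ordered by length, Tyrobp, Fcer1g, Cst3, Aif1 and Trem2 have the shortest transcripts of the set (564 to 1088 nt), and Cx3cr1, Itgam, Csf1r, Ptprc and Sall1 are among the longest (4493 to 5265 nt). Across the 36 genes, Spearman's rho between transcript length and log2 fold change was −0.72 in HFD+Mino against HFD, 0.52 in HFD against Control and −0.55 in HFD+Mino against Control. Over the 16844 tested genes with a length it was −0.59, 0.38 and −0.42, a description across genes that share the same libraries. Of the 18 shorter members (564 to 2273 nt), 17 lay above 0 in HFD+Mino against HFD, with a median of 1.07 on the log2 scale, and all 5733 genes in that length range had a median of 0.72. Of the 18 longer members (2344 to 5728 nt), 8 lay above 0 and 10 below, with a median of −0.05, beside −0.36 for the 8324 genes in that range. This split was chosen after the values were seen. In both ranges the members' median lay above that of genes of like length.

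When a smooth trend of each sample on transcript length was removed, rho over the members in HFD+Mino against HFD was −0.0088 and 0 members were called, where 2.9% of all genes were. The log2 fold change of Fcgr3 then was 0.77 (edgeR FDR 0.0491), that of Trem2 0.49, that of Aif1 0.23, that of Tyrobp 0.18 and that of Itgam −0.84. Several other differences were small after the removal or turned in sign, with Cx3cr1 at 0.071, Csf1r at −0.38, Sall1 at −0.14 and Ctss at −0.032. At an unadjusted p under 0.05, 6 members were higher and 2 lower in HFD+Mino, which is 16.7% and 5.56% of the set, against 16.7% and 12% of all genes under the same removal. Over Control, the log2 fold changes with the trend removed were 0.043 for Aif1, 0.52 for Fcgr3, 0.51 for Fcer1g and 0.44 for Cst3. With the replicate block for Control and HFD+Mino and this trend removed together, 1 member was called, Olfml3, a secreted olfactomedin-like protein, where 9.95% of all genes were called. The annotated transcripts used for Olfml3 (5465 nt, while RefSeq gives the whole gene 2608 bases) and for Cd33 (5728 nt) may be longer than those counted, so their place in the length order is uncertain, and without both genes rho was −0.75 in HFD+Mino against HFD. A length trend of this kind across all genes moves with the libraries as well as with the groups, and its source was not tested.

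**Figure D4:**
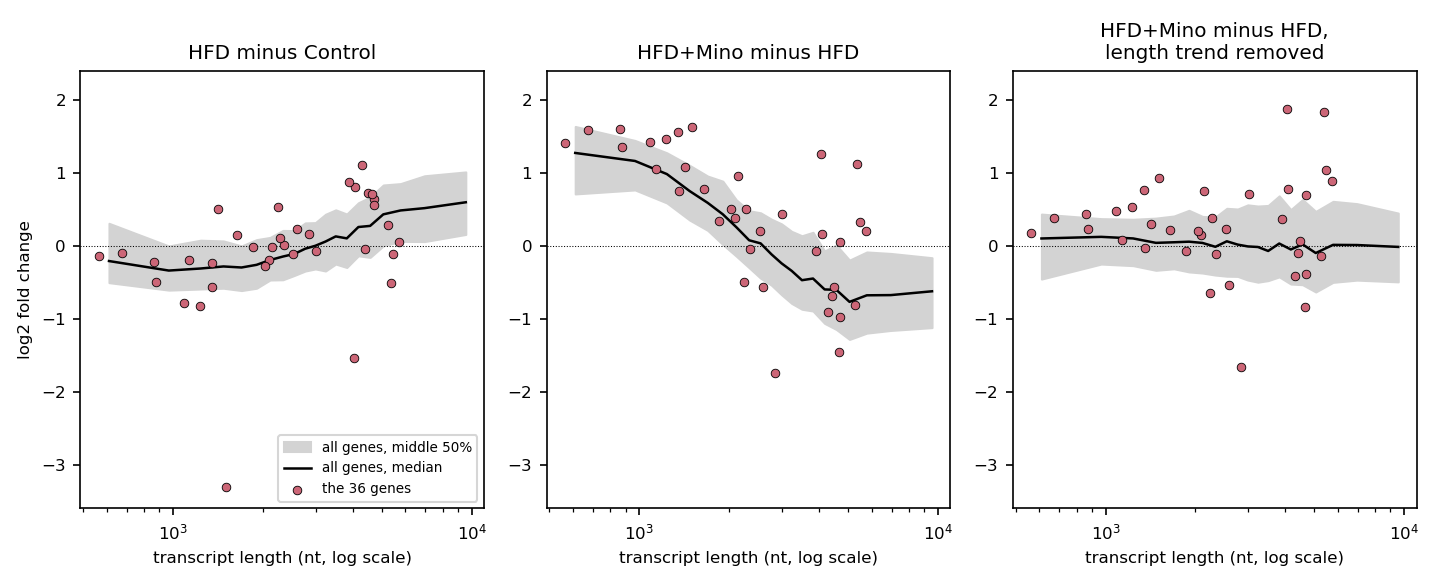
Log2 fold change (vertical axis) against transcript length in nt (horizontal axis, log scale) for the 36 genes (points) and all genes with a length in 20 bins (line, median; grey band, middle 50%), for HFD minus Control, HFD+Mino minus HFD, and HFD+Mino minus HFD with the length trend removed. The points fall from left to right with the line in the middle panel (rho −0.72 over the members), and the slope is gone in the right panel (rho −0.0088).

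The ratio of an adaptor with a short transcript to a receptor with a long one shows the same division within each sample. Tyrobp stood at 6.22, 4.23 and 2.20 times Csf1r per kilobase in Control and at 2.31, 2.62 and 2.26 times in HFD. In HFD+Mino the ratio was 24.7, 22.5 and 3.69. HFD+Mino replicate 3 thus fell within the range of the Control samples, and the other HFD+Mino samples lay beyond all 7 remaining samples. The ratio of Tyrobp to Trem2, both of short transcripts and partners in 1 receptor complex, ran from 3.41 to 8.02 over the 9 samples, with 6.43, 8.02 and 3.80 in HFD+Mino.

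Other microglial genes, from a list of 30 of which 29 were tested, gave 1 call in each direction, both for Itgb5, an integrin chain that other brain cells also express. Itgb5 was at 61.3, 50.3 and 62.8 CPM in Control, 8.53, 9.19 and 9.24 in HFD and 20.1, 22.4 and 63.4 in HFD+Mino. It fell in HFD against Control (log2 fold change −2.69, edgeR FDR 0.00371) and rose in HFD+Mino against HFD (1.97, edgeR FDR 0.00973). Over all genes, 1.74% were called in HFD against Control and 4.15% in HFD+Mino against HFD. At an unadjusted p under 0.05, 10 of the 29 genes were higher in HFD+Mino than in HFD and 1 was lower, beside the 21.6% and 19.8% of all genes given above, with a median log2 fold change of 0.03. Of 18 further genes of disease-associated microglia, Timp2 and Ank were called lower in HFD than in Control (−2.23 and −1.99, edgeR FDR 0.00799 and 0.00187), where 1.74% of all genes were called. Both of them are also expressed by other brain cells. In HFD+Mino against HFD, 9 of the 18 were higher and 1 was lower at an unadjusted p under 0.05, and none was called. Over all genes, 21.6% were higher and 19.8% lower.

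The ligands that act on microglia and the TGF-beta genes that keep their identity, 12 tested of 14, held no call. In HFD+Mino against HFD, 6 were lower and 1 higher at an unadjusted p under 0.05, against 19.8% and 21.6% of all genes. Inflammatory mediators, 9 of 14 tested, held 0 calls. Of the 9, 2 were higher in HFD+Mino than in HFD at an unadjusted p under 0.05, against 21.6% of all genes. The summed level of all 14 ran from 23.1 to 84.4 CPM, most of it from the cytokine gene Il18 at 19.3 to 69.3 CPM. The cytokine genes Il1b and Tnf were under 0.2 CPM in every sample and did not pass the low-count filter. For 12 further perivascular macrophage genes the summed level ran from 28.1 to 33.6 CPM in Control, from 33.5 to 43.9 in HFD and from 25.2 to 31.8 in HFD+Mino, with 11 tested and 0 called. Neutrophil and monocyte genes, 12 in the list and 4 tested, summed to 1.12 to 1.32 CPM in Control, 1.02 to 3.11 in HFD and 15.5, 6.84 and 3.55 in HFD+Mino, and 6 erythrocyte genes to 148, 119 and 23.2 CPM in HFD+Mino against 22.8 to 49.2 in HFD. Both sums were highest in HFD+Mino replicates 1 and 2, the samples in which Tyrobp, Fcer1g and Fcgr3 were highest, and the part of blood cells in those values was not tested. The lymphocyte list of 12 genes summed to 30.7, 29.5 and 6.28 CPM in HFD+Mino against 8.58 to 11.4 in HFD, with 3 genes tested and 0 called. Most of the sum was from Trac alone, at 29.4, 27.9 and 5.22 CPM in HFD+Mino and 5.07, 7.28 and 10.2 in HFD. The genes Cd3d, Cd3e, Cd3g and Cd8a were at most 0.502 CPM in every sample and did not pass the low-count filter.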

How the data were processed

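Paired reads from cDNA libraries of PVN punches were aligned by the authors with HISAT2 (mm10) and counted per gene with featureCounts. The deposited table holds these whole-number counts, not normalized, for 9 samples, and 0 further columns of samples. The strand setting and the handling of reads with several positions are not given in the sources used here. Genes were kept by filterByExpr and fitted with edgeR 4.0.16 (R 4.3.3) by TMM scaling and a quasi-likelihood model of all 9 samples with 1 mean per group. A call needed an FDR under 0.01, adjusted by Benjamini-Hochberg across the 17344 genes, and a 1.5-fold difference. Log2 fold changes carry standard errors from that fit. Transcript lengths are those of the principal GENCODE M21 transcript, and positions are those of RefSeq GRCm38.p6. Alternatives included DESeq2 1.42.0, RLE scaling, no filter, removed length or GC trends, a replicate block and each sample left out. Same-numbered samples of Control and HFD+Mino deviated together (correlations 0.135, 0.163 and 0.292), a pairing seen in the counts alone. Samples of the other pairs of groups did not when paired by the replicate numbers of the sample titles, with correlations between −0.152 and −0.00624. The HFD columns of counts carry other numbers than their titles, and the replicate block over all samples also followed the titles. Correlations between unlike-numbered samples were not computed. No replicates were near duplicates, since chi-square values of their counts ran from 21.0 to 316 per degree of freedom. Reads carry no molecular identifiers, so precision was taken from the spread between mice.

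The members and the other gene lists were chosen with earlier results of these data known. By rule, values in every sample are given for Aif1, each called member, the 3 largest positive and negative log2 fold changes in each comparison of 2 groups, Mrc1 and Cd163, and further members were named after their values were seen. The code was tested on simulated data. Python 3.11.15, pandas 2.3.3, scipy 1.17.1 and matplotlib 3.10.9 prepared tables and figures.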

Additional observations from a re-analysis of the deposited data

How the results depend on the processing

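The number of members called in HFD+Mino against HFD, 1 as reported, was 8 with DESeq2 (where 23% of all genes were called), 6 with no filter on low counts (7.61%), 9 at an FDR under 0.05, 2 with the replicate block over all samples (7.89%), 3 with that block and the GC trend removed (12.2%), and 0 with the length trend removed, alone (2.9%) or with that block (2.01%). The replicate block in Control and HFD+Mino alone, added after seeing the data, gave 12 (25.6%). Leaving out 1 sample gave from 0, where 0.162% to 1.89% of all genes were called, to 11, where 21.4% were. For the 9 at an FDR under 0.05, the shares over all genes were 14.6% higher and 12.9% lower. In HFD+Mino against Control, 0 as reported, the number was 3 with that added block (3.18%). With 1 sample left out it was 0 to 4, the 4 where 6.28% of all genes were called. In the 3-way test, 0 as reported, it was 5 with DESeq2 (13.6%), 2 with no filter (5.19%) and 4 with the added block (13.2%). It was 1 with the replicate block over all samples (2.81%) and with that block and the GC trend removed (5.32%). With 1 sample left out it was 0 to 8, the 8 where 13.4% of all genes were called. At an FDR under 0.05 it was 4, with no share over all genes computed. In HFD against Control it was 0 under all 21 alternatives. The replicate block changed no other count of called members by over 1.5 times. The median log2 fold change of the members moved under every alternative by less than 0.37, the SD of their median level between replicates. That measure is nearly as large as the reported median of 0.41 in HFD+Mino against HFD, so it cannot show that this median was stable. The median ran from 0.21 to 0.49 in HFD+Mino against HFD and from −0.14 to 0.17 in HFD against Control. With 1 sample left out, the log2 fold change of Cd163 in HFD against Control ran from −0.34 to 0.35 and turned in sign without Control replicate 1 (0.10) and without HFD replicate 1. That of Mrc1 in HFD+Mino against Control ran from −0.057 to 0.88 and turned without HFD+Mino replicate 2, and that of Spp1 ran from −2.22 to 0.97 and turned without Control replicate 1. The cause was not tested. Tlr4, Tlr7, Itgax, Mrc1 and Cd163 had means under 2 CPM in every group, and their differences were not detectable at this depth and spread.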
